A study of Ginkgo biloba with 7 samples.

Results

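The genes described here are the 45 genes of Ginkgo biloba that the deposited target list pairs with a miRNA name numbered miR171, miR169 or miR164 and with no miRNA of another number. They are 29 genes for miR171, 12 for miR169 and 4 for miR164, out of 902 genes in the list and 43456 genes with an expression value. Beside them stand the reads of the 37 miRNA names with these numbers. All values come from whole ovules of one cultivar, Fozhi, sampled from several healthy trees in the open. The pollinated ovules, PN, were taken at 1 day after pollination, and the mature ovules, PD, were taken while they secreted the pollination drop. Expression is compared between 1 RNA-seq library of each stage, and miRNA abundance between 1 small RNA library of each stage. The target list belongs to a sample that mixes ovules of 2 stages. It is treated here as the degradome library (sequenced ends of cleaved RNA), since the series names that assay, though no label says so. With 1 library a stage, no difference below has a replicate error or a test, and all of them are differences between libraries. The labels name no unpollinated ovules of the later stage, so pollination, the day that passed and any pollen on the ovule cannot be told apart.

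Plant miRNAs are short RNAs that guide an Argonaute protein to a closely matching messenger RNA, which is then cleaved or translated less. miR171 is known in other plants as the regulator of GRAS transcription factors of the HAIRY MERISTEM or SCL6 group, which maintain undifferentiated cells in meristems. miR169 is known there for NF-YA, the subunit of the trimeric nuclear factor Y that contacts the CCAAT box. miR164 is known there for NAC transcription factors of the CUP-SHAPED COTYLEDON group, which keep organ primordia apart and shape the margins and placental tissue from which ovules arise, and for NAC factors of senescence. The files pair no gene ID with a name, so which of the listed genes encode a GRAS, NF-YA or NAC protein is not known here. For the same reason the labelled tissue could not be checked against ovule or pollen marker genes.

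Most of the listed genes stood at similar levels in both libraries, as did most genes of the data. Within 1.5-fold were 25 of the 39 compared listed genes and 61.6% of all compared genes. Of the 45 genes, 39 (86.7%) had a mean of at least 1 FPKM (fragments corrected for gene length and library total) and were compared as the difference in log2(FPKM + 1), PN minus PD, a scale that understates differences of low genes. A single gene, Gb_07437 of miR171, was at least 2-fold higher in PN, and a single gene, Gb_35778 of miR171, was at least 2-fold lower. The background over all 21308 compared genes was 9.27% past 2-fold upward in PN and 6.86% past 2-fold downward, or 16.1% in both directions. Among the members 2 of 39 passed 2-fold (5.13%), and among the 676 compared genes listed for 1 other miRNA number 110 did (16.3%). The median difference of the 39 genes was -0.07, beside 0.08 for the genes of 1 other number and 0.11 for all compared genes. In bulk tissue, a lower value can be fewer cells that express a gene or less RNA per cell, and these cannot be told apart.

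The scale has an offset that matters for small differences. The median of all compared genes lay at 0.11, and setting it near 0 by median-of-ratios rescaling lowered every well-expressed gene by about 0.11 on the log2 scale. Of all genes past 2-fold, 57.5% were higher in PN as deposited and 47.4% after that rescaling (1576 higher and 1748 lower). Among the 39 members, 4 changed sign under it (Gb_09226, Gb_26200 and Gb_28433 of miR171 and Gb_24083 of miR169), all of them within 0.06 of 0 as deposited. Relative to the median of all compared genes, 14 members lay above and 25 below.

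**Figure D1:**
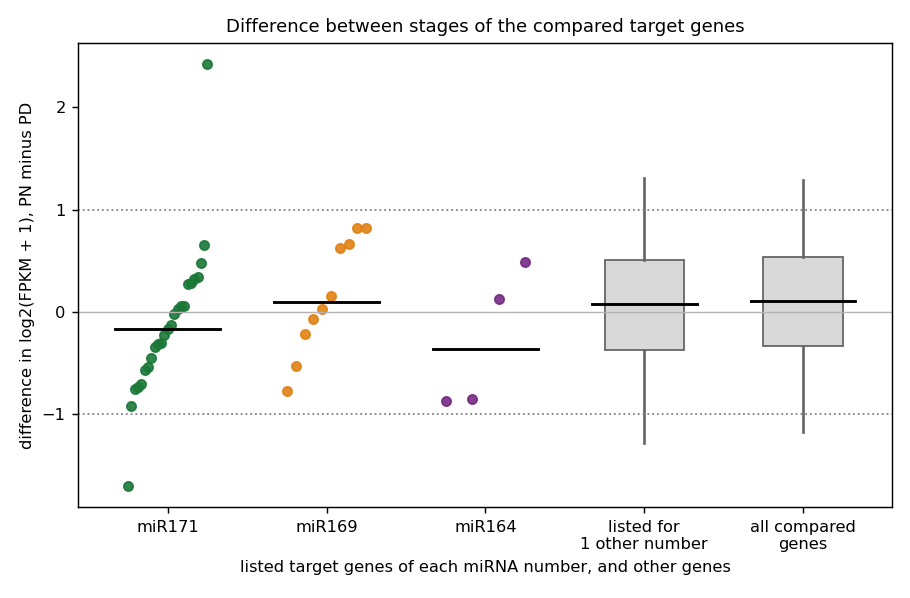
Difference in log2(FPKM + 1), PN minus PD, of each compared target gene of miR171 (25 genes), miR169 (10) and miR164 (4), in order of value within a number, beside the genes listed for 1 other number and all 21308 compared genes, shown as boxes from percentile 25 to 75 with lines to percentiles 5 and 95. Black bars are medians and dotted lines mark a 2-fold difference, which Gb_07437 (2.43) and Gb_35778 (-1.71) passed.

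The miR171 names held more reads than those of the other two numbers. Their 20 names summed to 1786 reads in PN, 0.158% of all 1129198 counted miRNA reads (exact 95% binomial interval 0.151 to 0.166), and to 1098 reads in PD, 0.142% of 774387 (0.134 to 0.1504). The share in PN was 1.12 times that in PD, with an exact interval of 1.03 to 1.204 that covers counting error only. By summed reads miR171 ranked 18th of 80 miRNA numbers and predicted miRNAs in PN and 21st in PD. Names are those of other species (ath is Arabidopsis thaliana, osa rice, zma maize, smo the spikemoss Selaginella moellendorffii), and several names share their counts exactly. Counted once where the counts are identical, the miR171 names formed 12 sets with 1183 reads in PN and 701 in PD, a ratio of 1.16 (1.05 to 1.27).

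One name differed more than the rest of miR171. The spikemoss name smo-miR171b had 542 reads in PN (480.0 TPM, reads scaled to a common total over all counted miRNA reads) and 274 in PD (354 TPM), a ratio of 1.36 (1.17 to 1.57). The next names, htu-miR171a and osa-miR171b, had the same counts as each other, 435 reads in PN (385 TPM) and 283 in PD (365 TPM), a ratio of 1.05 (0.905 to 1.23). smo-miR171b was thus the most abundant miR171 name in PN, and in PD it did not differ from the other two beyond counting error. Without it, the remaining 19 names gave 1244 reads in PN and 824 in PD, a ratio of 1.04 whose interval of 0.947 to 1.13 included equal shares. As a share of the reads outside miR166, the same 19 names had a ratio of 1.10 with an interval of 1.01 to 1.21 that left out equal shares. Within the family, smo-miR171b made up 30.3% of the reads in PN (28.2 to 32.5) and 24.95% in PD (22.4 to 27.6), a comparison that does not depend on the other miRNAs. With identical counts taken once, its part was 45.8% in PN (42.9 to 48.7) and 39.1% in PD (35.5 to 42.8), and both pairs of intervals stayed apart. The odds of a miR171 read falling to smo-miR171b in PN were 1.31 times those in PD (1.10 to 1.56). This odds interval was chosen after the values were seen, and reads counted under several names would make it too narrow. Between these 2 libraries, 73.2% of all 127 names of 50 or more reads had a ratio interval that left out equal shares. A shift of smo-miR171b between the stages is therefore not established.

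The other miR171 names were less abundant, and none of them had an interval that left out equal shares. aqc-miR171f had 79 reads in PN and 56 in PD, and ath-miR171b-3p, gma-miR171a and zma-miR171b-3p each had 78 in PN and 56 in PD. Their ratios of 0.967 and 0.955 had intervals from 0.669 or 0.678 to 1.37 or 1.39. mtr-miR171c had 30 reads in PN and 22 in PD, a ratio of 0.935 (0.522 to 1.70). lja-miR171c had 8 in PN and 5 in PD, a ratio of 1.10 (0.316 to 4.26). The remaining 11 names had under 10 reads over both libraries, too few to tell equal from unequal shares. Of these, ppt-miR171a and ppt-miR171b each had 4 reads in PN (3.54 TPM) and none in PD, where a count of 0 allows up to 3.87 TPM, so no difference was detectable at this depth.

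**Figure D2:**
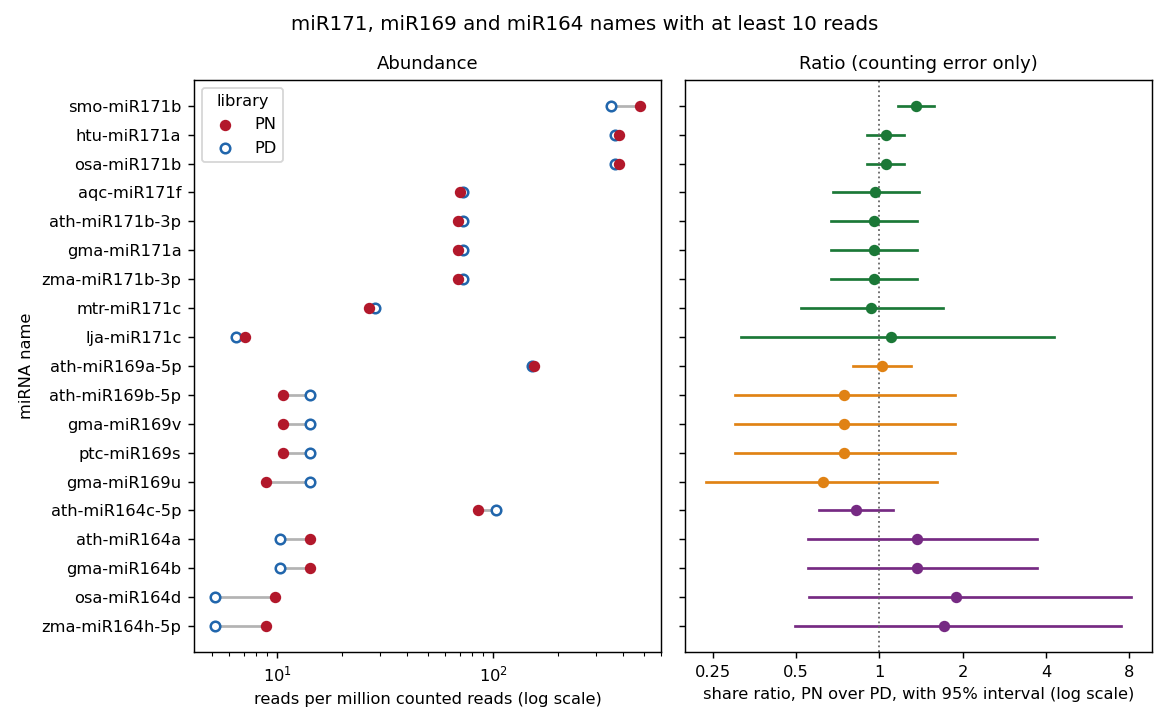
Left, TPM of each of the 19 names of 10 or more reads (both libraries summed), in PN (filled) and PD (open) on a log scale. Right, the ratio of shares PN over PD with its exact 95% interval for counting error, where smo-miR171b at 1.36 is the sole name whose interval leaves out 1.

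The target list holds 29 genes for miR171 alone, of which 25 passed the filter on low values. Of these, 10 differences were above 0 and 15 below, while 56.9% of all compared genes were above 0 and 43.1% below. Their median was -0.17, against 0.11 over all compared genes, and 18 of the 25 lay below that overall median. The median FPKM of the 25 genes was 41.1 in PN and 50.9 in PD, against 12.6 in PN and 11.98 in PD for all compared genes. The 25 genes were therefore mostly of middle to high expression, with a range of 2.86 to 609.9 FPKM in PN and 1.46 to 502 FPKM in PD. This level was not particular to miR171. The compared genes listed for 1 other number had medians of 42.4 FPKM in PN and 36.5 FPKM in PD, also above those of all compared genes.

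Gb_07437 stood apart from every other member. It was at 125.5 FPKM in PN and 22.5 FPKM in PD, a difference of 2.43 in log2(FPKM + 1), or 5.37-fold higher in PN. Its place among all genes by level was 1416 in PN and 7198 in PD. The pair is listed for ath-miR171c-5p, which had 1 read in each library. In other plants the GRAS-directed strand of miR171 is usually the 3p strand, and the 5p strand is the opposite arm of the hairpin.

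Gb_35778 had the lowest difference of the 39 compared genes. It was at 25.98 FPKM in PN and 87.1 FPKM in PD, a difference of -1.71, or 3.26-fold lower in PN. It is listed for htu-miR171a, one of the abundant names. The second gene of that name, Gb_28286, was at 104 FPKM in PN and 132 FPKM in PD, a difference of -0.34. osa-miR171b, whose counts equal those of htu-miR171a, is listed with Gb_08521, which was at 28.3 FPKM in PN and 28.7 FPKM in PD. The genes of these abundant names thus ran from near equality to a 3.26-fold lower value in PN.

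Gb_32672 was the most abundant miR171 gene and is listed under 3 names, smo-miR171b, zma-miR171b-3p and aqc-miR171f. It was at 609.9 FPKM in PN and 502 FPKM in PD, a difference of 0.28, and ranked 217th and 247th of all genes. The name with the higher share in PN, smo-miR171b, is listed with this gene and no other. Gb_28344, under gma-miR171a, ath-miR171b-3p and aqc-miR171f, was at 41.4 FPKM in PN and 32.9 FPKM in PD, a difference of 0.32. Both genes with 3 listing names were thus somewhat higher in PN and well within 2-fold.

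The genes with 2 listing names went in opposite directions. Gb_14040, under zma-miR171b-3p and aqc-miR171f, was at 2.86 FPKM in PN and 1.46 FPKM in PD, a difference of 0.65 on low values. Gb_05911, under gma-miR171a and mes-miR171d, was at 6.73 FPKM in PN and 11.9 FPKM in PD, a difference of -0.74. Both were among the lowest compared genes of the family. The fourth gene of aqc-miR171f, Gb_22763, was the second most abundant of the family. It was at 252 FPKM in PN and 478 FPKM in PD, a difference of -0.92 that became -1.03, past 2-fold, under median-of-ratios rescaling.

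zma-miR171b-3p and zma-miR171a-3p are listed with 7 genes each, the most among the 37 names of these 3 numbers. For zma-miR171b-3p, 6 genes were compared, with a median difference of 0.16 and a range of -0.31 to 0.65. Among them Gb_33430 was at 61.8 FPKM in PN and 50.9 FPKM in PD, and Gb_14161 was at 68.3 FPKM in PN and 85.2 FPKM in PD. Gb_17730 (22.6 FPKM in PN, 28.1 in PD) and Gb_28433 (11.5 FPKM in PN, 10.999 in PD) were lower expressed. The name had 134 reads, and none of its genes passed 2-fold.

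For zma-miR171a-3p, with 3 reads in PN and 1 in PD, 4 of the 7 genes were compared and their median difference was -0.36. Gb_08627 was at 32.8 FPKM in PN and 54.3 FPKM in PD, and Gb_13498 was at 9.02 FPKM in PN and 13.5 FPKM in PD. Gb_21213 was close to equal, at 41.1 FPKM in PN and 46.4 FPKM in PD. Gb_40950 went the other way, at 138 FPKM in PN and 98.8 FPKM in PD, a difference of 0.48. The genes of this one name thus lay on both sides of 0.

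Both genes of lja-miR171c were lower in PN and within 2-fold. Gb_00016 was at 39.2 FPKM in PN and 58.7 FPKM in PD, a difference of -0.57, and Gb_32998 was at 4.89 FPKM in PN and 8.98 FPKM in PD, a difference of -0.76. The genes of ppt-miR171a were near equal, with Gb_25197 at 62.6 FPKM in PN and 68.6 FPKM in PD and Gb_26200 at 29.5 FPKM in PN and 28.4 FPKM in PD. The 4 genes of stu-miR171d-5p, a name with 1 read in each library, were all expressed at 33.3 FPKM or more and lay between -0.45 and 0.34. They were Gb_27187 (74.0 FPKM in PN, 102 in PD), Gb_08728 (33.3 in PN, 39.2 in PD), Gb_09226 (107 in PN, 105.4 in PD) and Gb_06212 (109 in PN, 86.1 in PD).

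Another 4 miR171 genes did not pass the filter. Gb_08151 was listed at 0 FPKM in both libraries, and Gb_24190 was at 0.0281 FPKM in PN and 0.0166 FPKM in PD. Gb_29955 (0.939 FPKM in PN, 0.724 in PD) and Gb_32737 (0.423 FPKM in PN, 0.227 in PD) were low at both stages. Of these 4, Gb_24190 is listed for zma-miR171b-3p and the other 3 for zma-miR171a-3p.

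**Figure D3:**
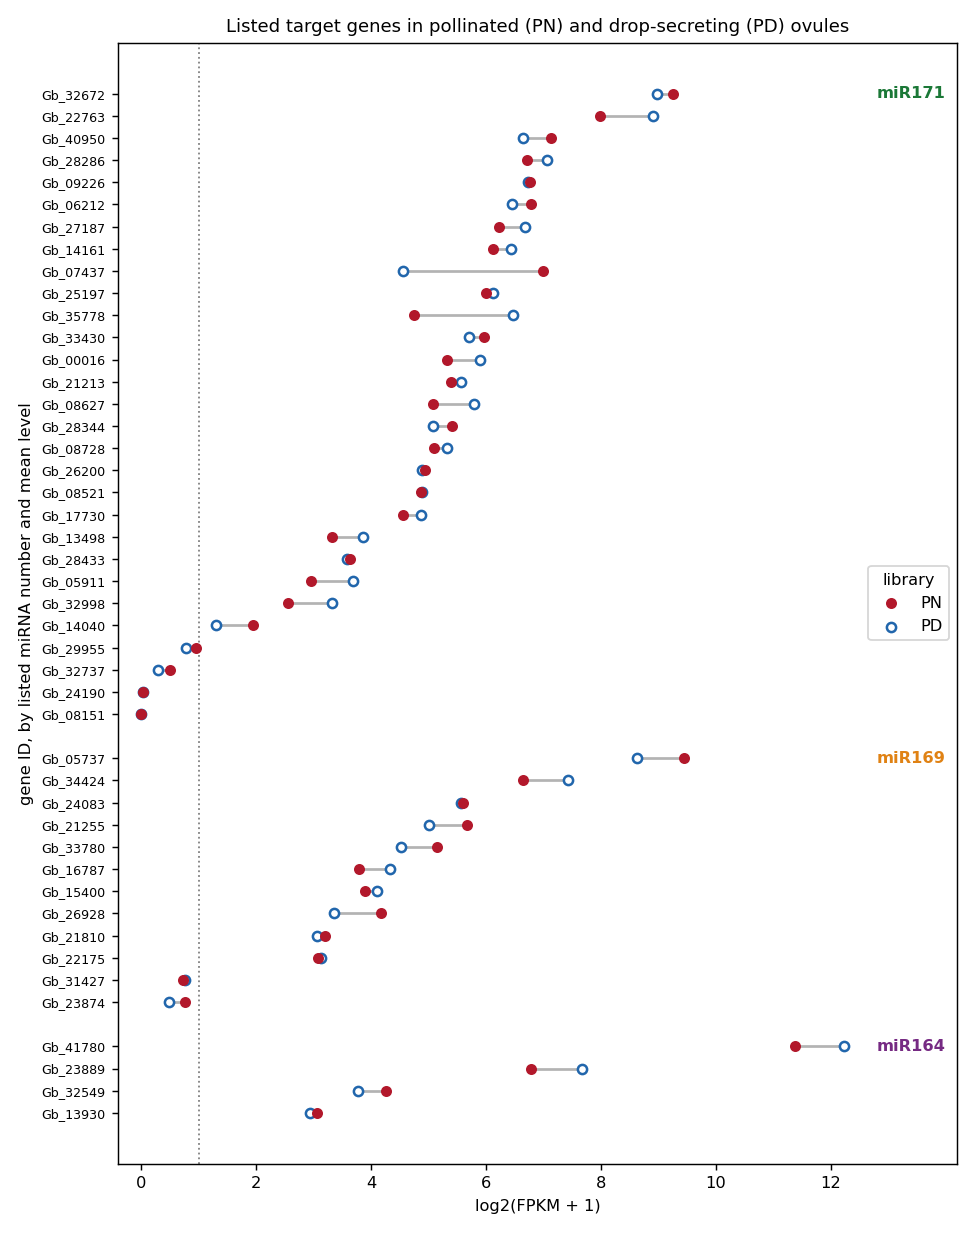
Level of each of the 45 target genes as log2(FPKM + 1) in the PN library (filled) and the PD library (open), grouped by miRNA number and ordered by mean FPKM, with a dotted line at 1 FPKM. Gb_07437 and Gb_35778 have the longest connecting lines, and Gb_41780 of miR164 is the most abundant gene, at 2640 FPKM in PN and 4782 in PD.

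The miR169 names were rare and near equal in share. Their 10 names summed to 226 reads in PN (0.0200% of counted reads, 0.0175 to 0.0228) and 162 in PD (0.0209%, 0.0178 to 0.0244), a ratio of 0.957 (0.778 to 1.18). Most of these reads belonged to ath-miR169a-5p, with 174 reads in PN (154 TPM) and 117 in PD (151 TPM), a ratio of 1.02 (0.802 to 1.30). It made up 77.0% of the family in PN (70.9 to 82.3) and 72.2% in PD (64.7 to 79.0), and the odds ratio of 1.29 had an interval of 0.787 to 2.097 that included 1. ath-miR169b-5p, gma-miR169v and ptc-miR169s shared the same counts of 12 reads in PN and 11 in PD, and gma-miR169u had 10 in PN and 11 in PD. The other 5 names had 1 or 2 reads in PN and at most 1 in PD. The interval of the family ratio, 0.778 to 1.18, included equal shares, so no difference of the family was seen beyond counting error at this depth.

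Of the 12 genes listed for miR169 alone, 10 were compared and none passed 2-fold. Their median difference was 0.09, near the 0.11 of all compared genes, with 6 above 0 and 4 below and a range of -0.78 to 0.82. The median became -0.01 under median-of-ratios rescaling. Of the 10 genes, 5 were within 1.5-fold, as were 61.6% of all compared genes.

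The genes higher in PN included the most abundant of the family. Gb_05737, listed for vvi-miR169r, was at 694 FPKM in PN and 393 FPKM in PD, a difference of 0.82, and ranked 174th and 329th of all genes. The second gene of that name, Gb_33780, was at 34.3 FPKM in PN and 22.0 FPKM in PD, a difference of 0.62. Both genes of this name were thus higher in PN, though the name itself had 1 read in PN and none in PD. Gb_21255, listed for ath-miR169b-5p, was at 49.9 FPKM in PN and 31.2 FPKM in PD, a difference of 0.66. Gb_26928, listed for tcc-miR169f, was at 17.0 FPKM in PN and 9.23 FPKM in PD, a difference of 0.82.

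The genes lower in PN were led by Gb_34424, also of tcc-miR169f, at 99.1 FPKM in PN and 170.5 FPKM in PD, a difference of -0.78. Gb_16787, under tcc-miR169f and ptc-miR169s, was at 12.8 FPKM in PN and 19.0 FPKM in PD, a difference of -0.53. The genes of tcc-miR169f therefore spanned the whole range of the compared genes of the family. Gb_15400, the other gene of ath-miR169b-5p, was at 13.8 FPKM in PN and 16.3 FPKM in PD.

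The remaining miR169 genes were close to equal or low. Gb_24083 of vvi-miR169t was at 47.5 FPKM in PN and 46.6 FPKM in PD. Gb_21810 of gma-miR169v was at 8.23 FPKM in PN and 7.29 FPKM in PD, and Gb_22175 of ath-miR169d was at 7.39 FPKM in PN and 7.78 FPKM in PD. Below the filter were Gb_31427 of gma-miR169u (0.654 FPKM in PN, 0.701 in PD) and Gb_23874 of tcc-miR169f (0.705 FPKM in PN, 0.403 in PD).

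Of the 3 numbers, miR164 had the fewest reads. Their 7 names summed to 161 reads in PN (0.0143% of counted reads, 0.0121 to 0.0166) and 108 in PD (0.0139%, 0.0114 to 0.0168), a ratio of 1.02 (0.796 to 1.32). The sum joined names on either side of 1. ath-miR164c-5p, the largest, had 96 reads in PN (85.0 TPM) and 80 in PD (103 TPM), a ratio of 0.823 (0.605 to 1.12). The other 6 names all had a higher share in PN, from ath-miR164a and gma-miR164b (16 reads in PN and 8 in PD each, ratio 1.37) to hci-miR164a and osa-miR164e (6 reads in PN and 2 in PD each, ratio 2.06). osa-miR164d had 11 reads in PN and 4 in PD, and zma-miR164h-5p had 10 in PN and 4 in PD. Each of the 6 names had an interval that included equal shares, from 0.554 to 3.70 for ath-miR164a to 0.368 to 20.8 for hci-miR164a. The 6 names hold 4 distinct pairs of counts.

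Together these 6 names had 65 reads in PN and 28 in PD, a ratio of 1.59 with an interval of 1.01 to 2.58. Counting identical counts once gave 43 reads in PN and 18 in PD, and the interval of 0.925 to 3.02 then included equal shares. ath-miR164c-5p made up 59.6% of the family in PN (51.6 to 67.3) and 74.1% in PD (64.8 to 82.0), and these intervals overlap. The odds of a miR164 read falling to this name in PN were 0.518 times those in PD, with an exact conditional interval of 0.291 to 0.908. With identical counts taken once the odds ratio was 0.504 (0.253 to 0.974), so in both counts ath-miR164c-5p held a smaller part of the family in PN. Both odds intervals were chosen after the values were seen, and reads counted under several names would make them too narrow. A difference beyond counting error is therefore not established.

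Of the 4 genes listed for miR164 alone, 2 were lower and 2 higher in PN, and none passed 2-fold. Gb_41780, listed for osa-miR164e, ranked 16th by level of all genes in PN and 14th in PD. It was at 2640 FPKM in PN and 4782 FPKM in PD, a difference of -0.86, or 1.81-fold lower in PN. Gb_23889, listed for hci-miR164a, was at 110 FPKM in PN and 202 FPKM in PD, a difference of -0.87. Both lower genes are listed for names with the same counts, 6 reads in PN and 2 in PD. Their ratio of 2.06 had an interval of 0.368 to 20.8 that included equal shares. Both genes were close to 2-fold lower under median-of-ratios rescaling (-0.97 and -0.98).

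The other pair of miR164 genes is listed for ath-miR164a and was little expressed by comparison. Gb_32549 was at 18.2 FPKM in PN and 12.7 FPKM in PD, a difference of 0.49. Gb_13930 was at 7.35 FPKM in PN and 6.67 FPKM in PD, a difference of 0.12. The median of the 4 genes, -0.37, falls between these pairs and describes neither of them.

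Across the 3 numbers, the names with the most reads were not those with the most listed genes. ath-miR169a-5p and ath-miR164c-5p, the most abundant names of their families, appear in no pair of the list. Of the 37 names, 13 have no listed gene, and 23 of the 45 genes are listed only for names with under 10 reads over both libraries. zma-miR171a-3p (3 reads in PN and 1 in PD) is listed with as many genes as zma-miR171b-3p (78 in PN and 56 in PD). The list gives no category, read count or probability for a pair, so pairs of rare names cannot be weighed against those of abundant ones.

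**Figure D4:**
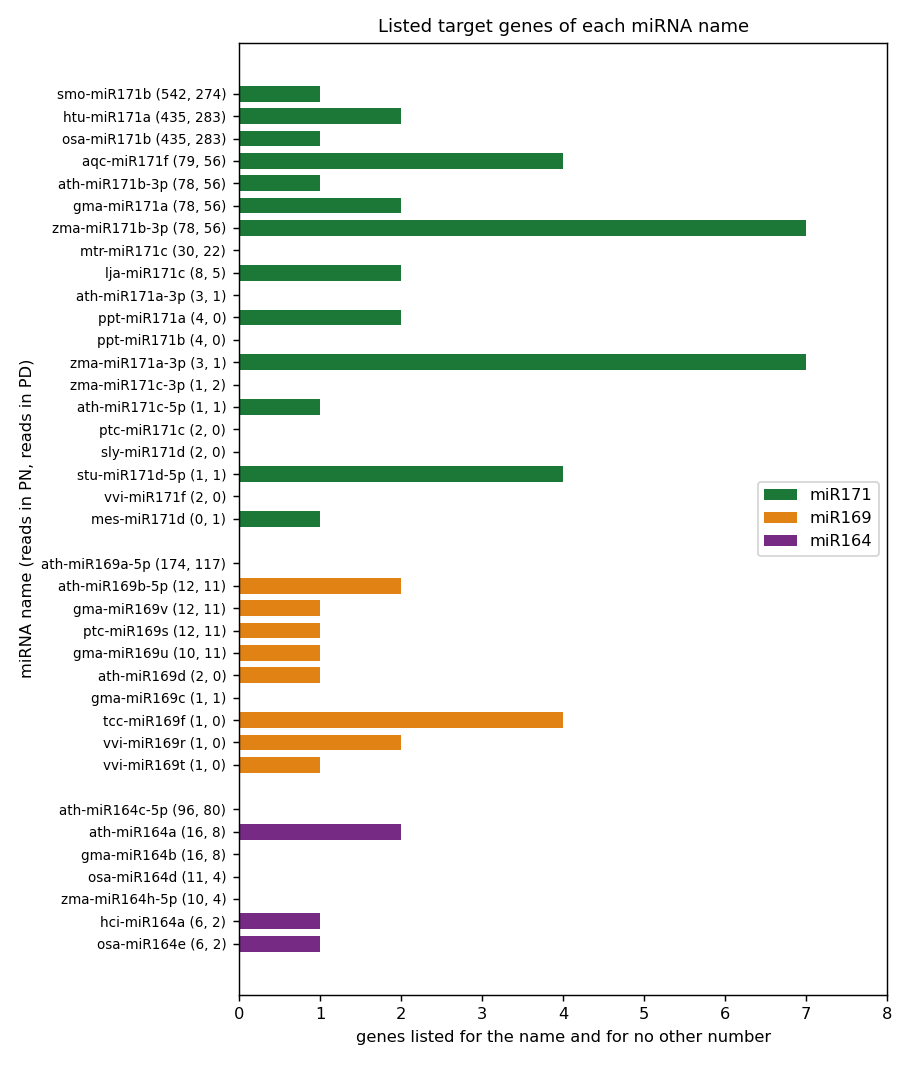
Number of genes listed for each of the 37 miRNA names and for no other number, with the names of a number in order of their reads over both libraries (reads in PN, then in PD, in parentheses). ath-miR169a-5p and ath-miR164c-5p have no bar, while zma-miR171a-3p with 3 reads in PN and 1 in PD has 7 genes.

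Split by the reads of the listing name, the compared genes fell into 3 sets. The 12 compared genes with a listing name of at least 50 reads had a median difference of -0.16, with 1 gene past 2-fold (Gb_35778). The 19 compared genes whose listing names all had under 10 reads had a median of -0.07, also with 1 past 2-fold (Gb_07437). For the 8 genes in between, the median was -0.05 and none passed 2-fold. The 12 genes are all of miR171, and their median of -0.16 was close to the -0.13 of the 11 miR171 genes of names under 10 reads. Adding the 2 genes of lja-miR171c (-0.57 and -0.76) gave 14 miR171 genes of names with at least 10 reads and a median of -0.31.

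Few names of these families had an interval that left out equal shares. Among their 10 names of 50 or more reads, 1 (smo-miR171b) had an interval that left out equal shares, against 73.2% of all 127 names of that depth. Of the 10, 8 are miR171 names, which are 5 when identical counts are taken once, so the 10 are not separate observations. None of the 10 was called 2-fold higher or lower, against 15.7% of the 127. None of the 19 names of 10 or more reads was called either, against 20.2% of all 183. A call needed an interval that left out 1 as well as a 2-fold ratio. Names of few reads, such as osa-miR164d with a ratio of 1.89 and an interval of 0.559 to 8.12, could therefore hardly be called, and all 3 shares compare names of unequal depth.

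A further 5 genes are listed for one of these numbers and also for another, and stand outside the 45. Gb_26865, shared by miR171 and miR162, was at 110 FPKM in PN and 289.6 FPKM in PD, a difference of -1.39. It is listed for htu-miR171a, as are Gb_35778 and Gb_28286 (the latter at -0.34), so all 3 genes paired with that name were lower in PN. Of all compared genes, 43.1% were below 0. Gb_08521 of osa-miR171b, a name with the same counts, was near equality (-0.02). Gb_27480, shared with miR172, was at 17.3 FPKM in PN and 28.5 FPKM in PD, and Gb_09287, shared by miR171 and miR482, was at 24.8 FPKM in PN and 13.98 FPKM in PD. Gb_36066, shared by miR169 and miR476, was at 72.8 FPKM in PN and 101 FPKM in PD. Gb_24472, shared by miR164 and miR166, was listed at 0 FPKM in both libraries.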

How the data were processed

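The authors deposited a table of FPKM per gene, a table of read counts and TPM per miRNA name, and a list of miRNA-target pairs. The submitters' processing notes name Bowtie, TopHat, TopHat2 2.0.12 and Cufflinks 2.1.1, with no role given. For genome build, annotation, the assignment of reads to miRNA names and the calling of pairs, methods were not given in the sources used here. Deposited counts are whole numbers without normalization, and the deposited TPM is the count scaled to the sum of counts in the same table. Of the 4 FPKM columns, 2 carry the same header (PD2) and were not used, which left 1 library a stage in place of the replicated fit the labels would allow. FPKM give no absolute depth, so no interval is given for genes.

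Genes with a mean of at least 1 FPKM were compared as log2(FPKM + 1), PN minus PD, and called at 2-fold. A miRNA number is the digits after miR in a name. Each ratio of shares was given an exact 95% interval from the conditional binomial (Clopper-Pearson), each share an exact Clopper-Pearson interval, each odds ratio within a family an exact conditional interval (chosen after its values were seen), and a count of 0 allows up to 3 reads (2.66 TPM in PN, 3.87 in PD). All of these cover counting error only, and reads counted under several names make them too narrow. The rule for named genes took each gene past 2-fold and the 4 with the highest mean FPKM of each number, and each miRNA name with at least 10 reads. The other members and rarer names were named to account for all of them, after their values were seen. The members, lists and rules were chosen with earlier results of these data known. The lists of GRAS, NF-Y, NAC, ovule, pollen, leaf and small RNA machinery genes could not be formed without gene names. Fold calls and ratio intervals were tested on simulated data with independent counts for each name. That simulation held no reads shared between names and no variation between libraries, so it says nothing about either. Intervals of shares and odds ratios were not part of it. Python 3.11.15, pandas 2.3.3, numpy 2.4.6, scipy 1.17.1 and matplotlib 3.10.9 were used.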

Additional observations from a re-analysis of the deposited data

How the results depend on the processing

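No paired analysis was possible because a single FPKM column a stage has a header of its own, and so no library could be left out either. Some filters left a list of genes unchanged, and a count within 1.5-fold of the main value was taken as within its limits. The tally is therefore a lenient one. Of 70 values of lists, counts and family ratios under other pseudocounts, filters, scalings and sums, 67 stayed within their limits and 3 moved. The miR171 ratio was 1.36 from its most abundant name alone, the count of miR171 genes past 2-fold was 1 with genes of names of at least 10 reads (Gb_07437 is listed for a rarer name), and 37 of all names were past 2-fold with a minimum of 10 reads in place of 20 with a minimum of 50, by construction from names of few reads. The median of the miR171 genes stayed below 0 throughout, from -0.31 (names of at least 10 reads) to -0.07 (no FPKM filter). Medians of the smaller lists did not keep their sign. That of miR169 ran from -0.03 (names of at least 10 reads) to 0.10 (pseudocount 0.1). The miR164 median was 0.30 over the 2 genes of names with at least 10 reads, against -0.47 to -0.36 elsewhere. That setting left out the lower genes Gb_23889 (-0.87) and Gb_41780 (-0.86). The value of 0.30 still counted as within limits, because the limits for miR164 were the whole range of its 4 genes (-0.87 to 0.49). Leaving genes out could not move its median past them. Among single genes and names, 79 of 80 values stayed and Gb_22763 passed 2-fold under median-of-ratios rescaling (-1.03). For the small RNA libraries that rescaling rests on aqc-miR171f, itself a miR171 name, and is no separate check of this family; the miR171 ratio was 1.15 under it and 1.19 as a share of reads outside miR166. The family ratios of miR169 and miR164 lay on both sides of 1 over the sum of all names, identical counts once, the most abundant name alone and both other scalings, with intervals that included 1 in each of these.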
